A study of Mus musculus with 9 samples.

Results

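Expression of 10 YAP and TAZ target genes was described in B16 cells, a mouse melanoma cell line, from 9 RNA sequencing libraries. The genes were taken by symbol from a list of known targets, drawn up with earlier results of these data known. They were Cyr61, Ctgf, Ankrd1, Axl, Ajuba, Crim1, F3, Tgfb2, Nuak2 and Fstl1, 10 of 22972 gene names in the deposited tables. The tables list Cyr61 as Ccn1 and Ctgf as Ccn2. The cells were wild type and grew on flexible PDMS film for all groups. In CTL (n = 3) there was no straining, in MS (n = 3) cyclic straining lasted 72 h, and in MS + Blebb. (n = 3) blebbistatin, an inhibitor of non-muscle myosin II, was given at 100 ng/mL for 72 h. The sample labels of the last group name the inhibitor and do not mention straining. The paper's methods describe the inhibitor before straining, and the name MS + Blebb. follows the paper. All libraries are labelled Day 3 and come from 1 cell line. The labels call the replicates parallel experiments and name no separate cultures, so the p-values measure the spread between these libraries, which may be technical.

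YAP, and TAZ, which is encoded by Wwtr1, are transcriptional coactivators that bind DNA through the TEAD proteins. The Hippo kinases hold them in the cytoplasm, and spreading of the cell, stiffness of the matrix and tension of the actomyosin cytoskeleton bring them into the nucleus. Cyr61, Ctgf and Ankrd1 are the targets read most often as a measure of their activity, and Axl is a target studied in the invasive state of melanoma. The question asked here of the 3 groups was whether straining alters YAP and TAZ targets and whether inhibition of myosin removes that effect. The paper judged YAP activity from its location in stained cells, and used the sequencing for melanoma and mechanotransduction genes.

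The deposited values are FPKM, that is fragments on a gene scaled to its length and to the mapped fragments of the library, so levels of different genes can be compared. Of the 10 genes, 6 averaged 1 FPKM or more, the minimum for the test across genes. These were Ajuba, Cyr61, F3, Axl, Ctgf and Crim1. Fstl1, Tgfb2 and Nuak2 lay under that minimum, and Ankrd1 was listed at 0 in all 9 libraries. In bulk RNA, fewer expressing cells and less RNA per cell cannot be told apart.

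The cells were checked against markers of their type. The 7 melanocyte genes (Mitf, Dct, Tyr, Tyrp1, Pmel, Mlana and Sox10) summed to between 7440 and 12900 FPKM per library. Of 8 fibroblast genes, Thy1, Dcn and Lum were at 0 in every library, and the list summed to between 0.896 and 1.23 FPKM. The 5 keratinocyte genes summed to at most 0.0314 FPKM and the 5 endothelial genes to at most 0.116 FPKM. Ptprc, which marks leukocytes, was at 0 in all libraries. The 6 macrophage genes summed to between 2.13 and 4.32 FPKM, of which Cd68 made up the larger part in every library.

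Libraries are named by group and replicate number. CTL 1, MS 3 and MS + Blebb. 2 stood apart from the other 6 libraries, 1 in each group. Genes of the amino acid and endoplasmic reticulum stress response were high in these 3 libraries. Atf4, the transcription factor of that response, was between 280 and 337 FPKM in them and between 126 and 174 FPKM in the others. Ddit3, its target and the gene of CHOP, was between 99.1 and 137 FPKM against 18.5 to 45.7 FPKM. The sum of 6 such genes (Atf4, Ddit3, Trib3, Chac1, Asns and Sesn2) was 785 to 1040 FPKM in the 3 libraries and 329 to 493 FPKM in the others. They were less alike in other measures. On the first principal component, which held 70.4% of the variance, CTL 1 and MS + Blebb. 2 were at -42.1 and -43.9, but MS 3 was at -10, close to MS + Blebb. 1 at -7.29, and the rest lay between 6.07 and 35.8. The correlation across genes between GC content and the deviation of a library from the mean of all was 0.456 in CTL 1, 0.545 in both MS + Blebb. 1 and MS + Blebb. 2, -0.157 in MS 3 and between -0.642 and 0.0563 in the rest. Genes with at least 1 FPKM numbered 9529 in CTL 1 and 9553 in MS + Blebb. 2, and between 9763 and 10388 in the other 7 libraries, MS 3 included. The results are therefore given with and without the 3 libraries, and the part of these measures in them was not tested.

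Binding sites of the TEAD proteins, through which YAP and TAZ bind DNA, were looked for in the promoters. Sequence farther from the gene starts was not searched. RefSeq promoters of GRCm38.p6, each 300 bases from 250 before to 50 after the start given in the promoter table, were held for 8 of the 10 genes, and none for Ctgf and Nuak2. The motif searched was the 6 letters of the TEAD site, GGAATG, on both strands (CATTCC when read from the other strand). It was found in 5 of the 8 promoters, and in 14.7% of all 32851 promoters of the same length. Ajuba and Ankrd1 had 2 matches each, which 1.33% of all promoters had or exceeded. The stretches that hold the matches are printed here because their genes had different levels in these cells. Cyr61 and Ajuba were the most abundant of the 10 genes, Crim1 was lower, Axl was high within each group where Cyr61 was low, and Ankrd1 was at 0. Each is read 5′ to 3′ on the strand of its gene, with the motif in capitals.
Cyr61, chr3:145650063-145650108, minus strand: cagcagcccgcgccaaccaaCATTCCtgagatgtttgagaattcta
Ajuba, chr14:54577800-54577867, minus strand: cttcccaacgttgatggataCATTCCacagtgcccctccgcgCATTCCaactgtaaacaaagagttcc
Axl, chr7:25788941-25788983, minus strand: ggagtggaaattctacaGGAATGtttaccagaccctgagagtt
Ankrd1, chr19:36119942-36120074, minus strand: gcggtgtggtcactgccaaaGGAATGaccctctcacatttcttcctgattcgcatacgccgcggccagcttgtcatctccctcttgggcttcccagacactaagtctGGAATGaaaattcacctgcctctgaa
Crim1, chr17:78200149-78200194, plus strand: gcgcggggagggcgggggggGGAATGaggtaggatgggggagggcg
That start is the outer end of the gene positions given here for 5 of the 8 genes, and lies 191 bases inside them for Axl, 15 bases inside for Crim1 and 3708 bases inside for Tgfb2. The match began 103 bases before the start of the table in Cyr61, 186 and 164 bases in Ajuba, 233 bases in Axl, 210 and 123 bases in Ankrd1 and 79 bases in Crim1. F3, Tgfb2 and Fstl1 held no match in this window, and Fstl1 and Tgfb2 were also under the minimum while F3 was not. A match is a run of letters and was not tested for binding.

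Cyr61 and Ctgf encode secreted matricellular proteins of the CCN family. Cyr61 (chr3:145646971-145649985 on GRCm38) was at 4.33, 10.7 and 14.8 FPKM in CTL 1, CTL 2 and CTL 3, at 11.1, 11.99 and 5.59 FPKM in MS and at 15.4, 4.28 and 14.5 FPKM in MS + Blebb. Each group held 1 low library, and the low ones were the 3 libraries with the high stress genes. The groups overlapped. Group means were 9.96 ± 5.28, 9.57 ± 3.47 and 11.4 ± 6.19 FPKM (SD, n = 3).

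Ctgf (chr10:24595442-24598683) was at 1.20, 3.997 and 3.73 FPKM in CTL, at 2.12, 2.91 and 1.12 FPKM in MS and at 3.46, 1.57 and 4.34 FPKM in MS + Blebb. The lowest library of each group was the same as for Cyr61. Group means were 2.98 ± 1.54, 2.05 ± 0.898 and 3.12 ± 1.41 FPKM (SD, n = 3), so the difference between the groups was smaller than the range within CTL. Within a library, FPKM of Cyr61 was between 2.69 and 5.26 times that of Ctgf, a narrower span than the 3.60-fold range of Cyr61 and the 3.87-fold range of Ctgf between libraries.

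F3 encodes tissue factor, the cell surface initiator of blood coagulation. F3 (chr3:121723537-121735052) was at 3.34, 6.91 and 5.58 FPKM in CTL, at 6.49, 5.04 and 3.98 FPKM in MS and at 4.63, 3.28 and 7.47 FPKM in MS + Blebb. It was again lowest in CTL 1, MS 3 and MS + Blebb. 2 within their groups. The 3 group means, 5.28 ± 1.81, 5.17 ± 1.26 and 5.13 ± 2.14 FPKM (SD, n = 3), were close together compared with the SD.

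Ajuba encodes a LIM domain protein of cell junctions that binds the LATS kinases. It was the most abundant of the 10 and the steadiest of the 6 that were tested, with a 1.53-fold range over the libraries. Ajuba (chr14:54567469-54577661) was at 12.4, 15.7 and 18.3 FPKM in CTL, at 12.45, 15.6 and 11.98 FPKM in MS and at 18.3, 13.99 and 16.04 FPKM in MS + Blebb. The lowest library in each group was the same as for Cyr61, by a small margin in MS. Means were 15.5 ± 2.95, 13.4 ± 1.98 and 16.1 ± 2.14 FPKM (SD, n = 3).

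Crim1 encodes a transmembrane protein with cysteine-rich repeats that binds bone morphogenetic proteins. Crim1 (chr17:78200233-78376592) was at 1.42, 3.204 and 3.71 FPKM in CTL, at 3.49, 2.24 and 2.50 FPKM in MS and at 2.12, 1.44 and 3.52 FPKM in MS + Blebb. CTL 1 and MS + Blebb. 2 were lowest in their groups, whereas in MS it was replicate 2. Means were 2.78 ± 1.20, 2.74 ± 0.661 and 2.36 ± 1.06 FPKM (SD, n = 3).

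Axl encodes a receptor tyrosine kinase for the ligand GAS6. Axl (chr7:25756500-25788924) was at 5.76, 2.84 and 3.02 FPKM in CTL, at 1.75, 2.52 and 3.69 FPKM in MS and at 3.94, 6.97 and 3.77 FPKM in MS + Blebb. Within each group it was highest in the library where Cyr61 and Ctgf were lowest, although MS 3 lay below all 3 MS + Blebb. libraries. The 3 MS + Blebb. libraries all lay above the 3 MS libraries, by a small margin between MS + Blebb. 3 and MS 3. The CTL libraries overlapped with both groups. Means were 3.87 ± 1.64, 2.65 ± 0.975 and 4.89 ± 1.80 FPKM (SD, n = 3).

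**Figure D1:**
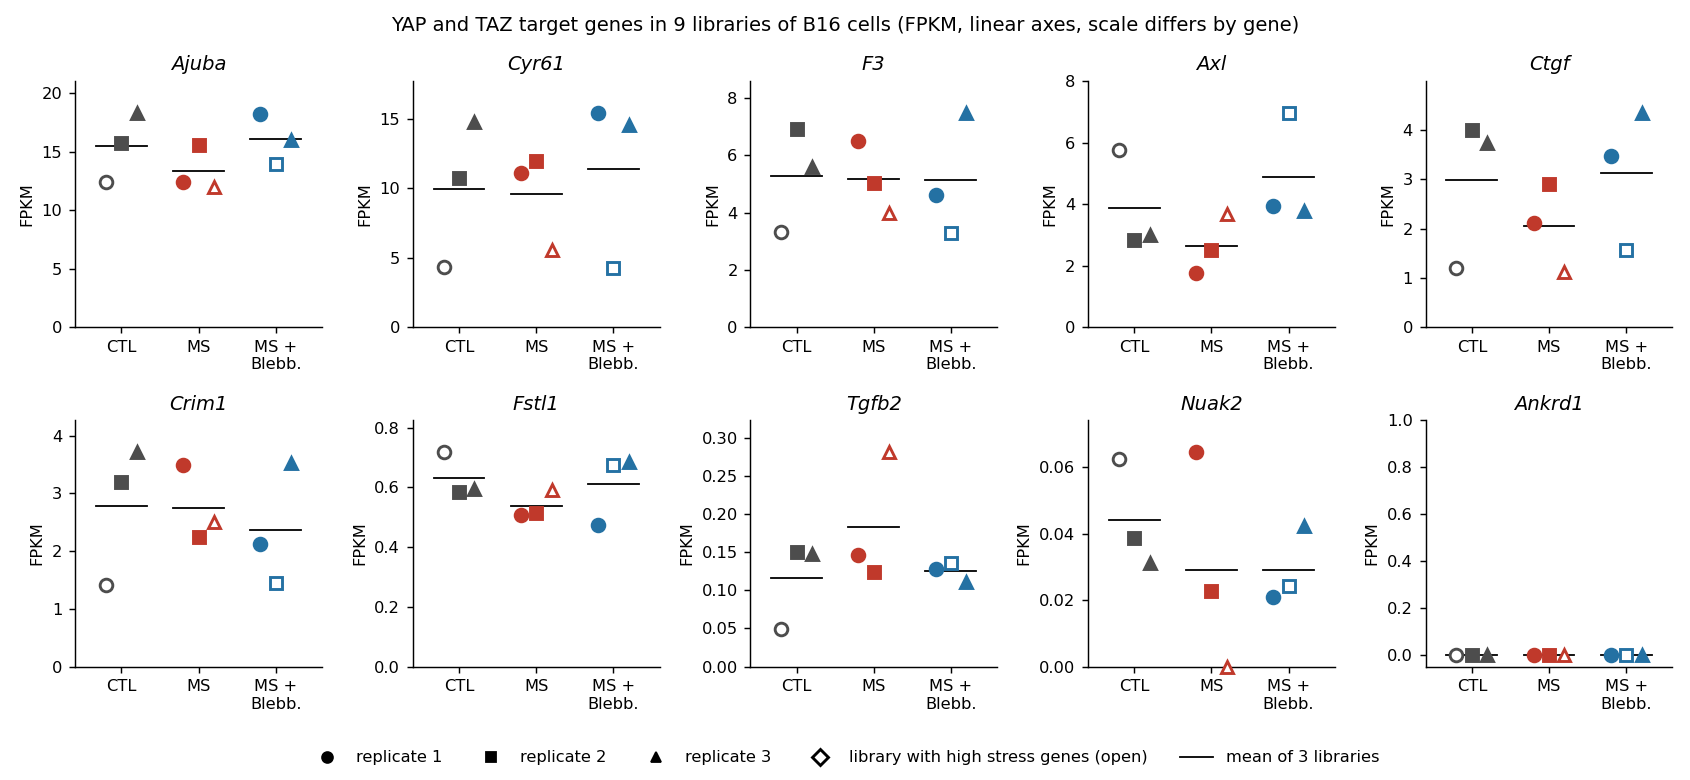
FPKM of each of the 10 target genes (y axis, linear, from 0 and scaled to the gene) in the libraries of CTL, MS and MS + Blebb. (x axis). Each point is a library, its shape gives the replicate, open points are CTL 1, MS 3 and MS + Blebb. 2, and lines are means of 3 libraries. Open points are the lowest of their group for Ajuba, Cyr61, F3 and Ctgf and the highest for Axl, and Ankrd1 is at 0 throughout.

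The 3 genes with a low level encode a ligand, a kinase and a secreted glycoprotein. Fstl1, the secreted follistatin-like glycoprotein (chr16:37777055-37836516), was between 0.472 and 0.717 FPKM, with a median of 0.592 FPKM. It was the steadiest of all, with a 1.52-fold range. Group means were 0.632 ± 0.0739, 0.538 ± 0.0469 and 0.611 ± 0.120 FPKM (SD, n = 3), in the order CTL, MS, MS + Blebb. Tgfb2, the ligand of TGF-beta receptors (chr1:186622787-186709697), was at 0.0495, 0.150 and 0.148 FPKM in CTL, 0.146, 0.124 and 0.281 FPKM in MS and 0.128, 0.136 and 0.111 FPKM in MS + Blebb. Its lowest value was in CTL 1 and its highest in MS 3, so it had no common direction in the libraries with high stress genes. All its values were low, and depth is unknown. Nuak2, a kinase of the AMPK family (chr1:132316125-132333488), was at most 0.0645 FPKM, in MS 1, and at 0 in MS 3.

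These genes were compared between groups by an exact two-sided permutation test of the mean FPKM. With 3 libraries against 3 it cannot give p under 0.1. For Fstl1, p was 0.2 for MS with CTL, 0.4 for MS + Blebb. with MS and 0.8 for MS + Blebb. with CTL (exact permutation test). For Tgfb2 the values were 0.6, 0.3 and 1.0, and for Nuak2 they were 0.5, 1.0 and 0.3 (exact permutation test). The groups overlapped in all of these. Ankrd1, the gene of a nuclear ankyrin repeat protein (chr19:36111965-36119844), is listed at 0, so no comparison was made.

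In order of mean FPKM over the 9 libraries, the genes were Ajuba (15.0), Cyr61 (10.3), F3 (5.19), Axl (3.81), Ctgf (2.72), Crim1 (2.63), Fstl1 (0.594), Tgfb2 (0.141), Nuak2 (0.0341) and Ankrd1 (0). Ajuba was above Cyr61 in 9 of 9 libraries and Cyr61 above F3 in 9 of 9. The ranges of F3, Axl, Ctgf and Crim1 overlapped, and the order of neighbours changed between libraries. F3 was above Axl in 7 of 9 libraries, Axl above Ctgf in 4 of 9, and Ctgf above Crim1 in 6 of 9. Crim1 and Fstl1 did not overlap, and neither did Fstl1 and Tgfb2. Among the 10109 genes tested, 59.8% had a lower mean than Ajuba, 49.7% a lower mean than Cyr61, 16.6% a lower mean than Ctgf and 15.9% a lower mean than Crim1.

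Cyclic straining was compared with no straining in 1 limma fit over all 10109 genes, with values as log2(FPKM + 1), on which changes of low genes come out too small. Of the 6 target genes tested, 0 rose and 0 fell in MS against CTL at an adjusted p under 0.05 (limma with Benjamini-Hochberg adjustment), where 0% of all genes tested passed. At an unadjusted p under 0.05 there were 0 of the 6 and 16 of 10109. So few of all genes reached it, here and in the comparisons below, that 0 of the 6 does not show the targets to be unchanged. Axl had a log2 fold change of -0.40 (standard error 0.30, 95% interval -1.09 to 0.29, adjusted p = 1.00, limma). Ctgf was at -0.34 (standard error 0.39, interval -1.23 to 0.55) and Ajuba at -0.19 (standard error 0.18, interval -0.59 to 0.21). Cyr61 at 0.023, Crim1 at 0.029 and F3 at -0.0013 were near 0, but their intervals, -1.17 to 1.22, -0.66 to 0.72 and -0.69 to 0.69, include changes in both directions. The median log2 fold change was -0.097 over the 6 genes and -0.0018 over all genes tested. None of the 6 had groups that did not overlap, which was the case for 3.17% of all genes. These values depended on single libraries. Without CTL 1, Ctgf was at -0.72, Cyr61 at -0.43, Ajuba at -0.33, Crim1 at -0.26 and Axl at -0.14, so that Ctgf was then farthest from 0. Ctgf was at -0.096 without MS 3, and Ajuba at -0.070 without CTL 3.

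MS + Blebb. was compared with MS to ask whether the same genes differ with blebbistatin. Myosin activity was not measured in these libraries. The labels of MS + Blebb. do not say whether it was strained. If it was not, the inhibitor and the absence of straining cannot be told apart in it. Of the 6 genes, 0 rose and 0 fell in MS + Blebb. against MS (limma with Benjamini-Hochberg adjustment), and 0% of all genes passed. At an unadjusted p under 0.05 there were 0 of the 6 and 126 of 10109. Axl had a log2 fold change of 0.68 (standard error 0.30, 95% interval -0.0058 to 1.37, unadjusted p = 0.0516, adjusted p = 0.897, limma). Axl was the 1 of the 6 whose groups did not overlap, against 3.73% of all genes in either direction and 3.05% with the higher values in MS + Blebb. With each library left out in turn, Axl was lowest at 0.44 when MS + Blebb. 2 was removed and highest at 0.88 when MS 3 was removed. Ctgf was at 0.42 (standard error 0.39, interval -0.47 to 1.31), Ajuba at 0.25 (standard error 0.18, interval -0.15 to 0.65) and Cyr61 at 0.12 (standard error 0.53, interval -1.07 to 1.32). Crim1 was at -0.19 and F3 at -0.047. Cyr61 turned to -0.18 without MS 3 and was at 0.66 without MS + Blebb. 2, and Ctgf was at 0.18 and 0.72 in the same fits. The median was 0.19 over the 6 genes and -0.0059 over all genes.

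In MS + Blebb. against CTL, again 0 of the 6 genes passed (limma with Benjamini-Hochberg adjustment), as did 0% of all genes, and 0 of the 6 and 9 of 10109 had an unadjusted p under 0.05. Log2 fold changes lay between -0.16 (Crim1, interval -0.85 to 0.53) and 0.28 (Axl, interval -0.41 to 0.97). None of the 6 had groups without overlap, against 2.08% of all genes. The 3 comparisons use each group in 2 of them. The 2 values of Axl, -0.40 for MS against CTL and 0.68 for MS + Blebb. against MS, share the MS libraries. They are not independent of each other.

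**Figure D2:**
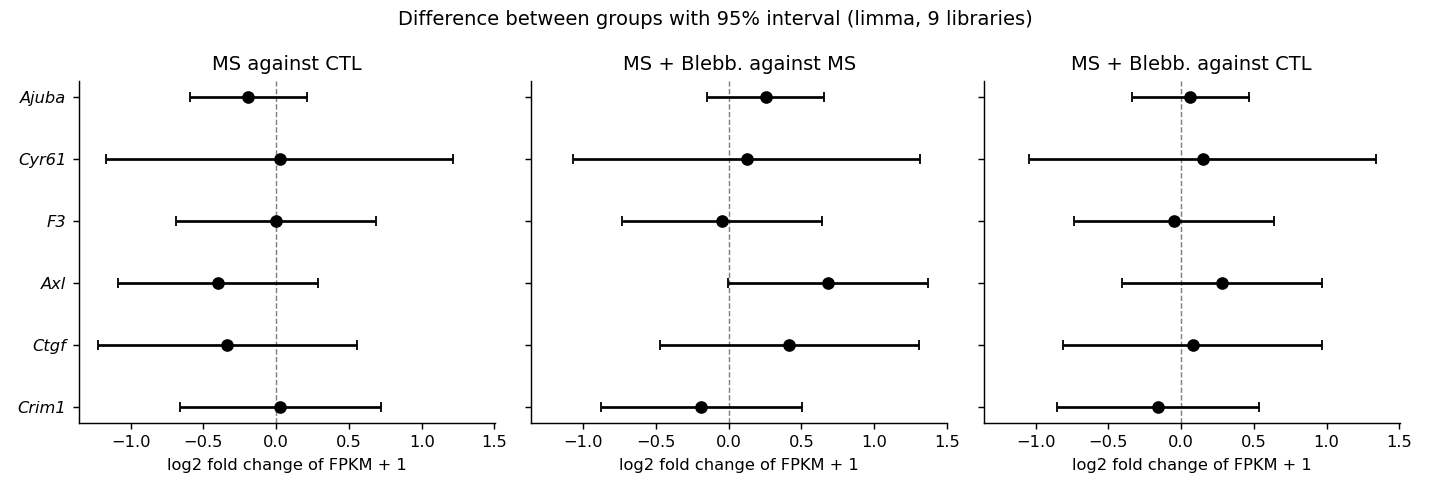
Log2 fold change of FPKM + 1 (x axis) of the 6 target genes tested (y axis) for each pair of groups (MS against CTL, then MS + Blebb. against each of the others), from limma over 9 libraries. Points are estimates and bars 95% intervals, and each interval includes 0, with the lower bound of Axl between MS + Blebb. and MS at -0.0058.

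Levels of the targets also differed between the libraries of a group. In CTL 1, Cyr61 was at 33.9% of the mean of the other 2 CTL libraries, in MS 3 at 48.4% of the mean of the other 2 MS libraries, and in MS + Blebb. 2 at 28.6% of its counterparts. Ctgf was at 31.1%, 44.5% and 40.3% in the same libraries. F3 was at 53.4%, 69.0% and 54.2%, and Ajuba at 73.0%, 85.3% and 81.6%. Axl was at 197%, 173% and 181%. Crim1 was at 41.1% and 51.1% in CTL 1 and MS + Blebb. 2, and at 87.3% in MS 3.

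Thus 4 of the 6 genes tested (Cyr61, Ctgf, F3 and Ajuba) were the lowest of their group in all 3 libraries, where 23.0% of all 10109 genes were, and 1 (Axl) was the highest in all 3, as were 22.8% of all genes. The 3 libraries are known to differ from the rest in many genes, so these counts are a description, and the libraries were named with that in view. The ratio of 2 targets in a library needs no scaling between libraries, but it is not corrected for GC content. That was 52.7% for Cyr61, 46.3% for F3 and 54.2% for Axl. In the 3 libraries Cyr61 and F3 were lowest and Axl highest of their groups, so Cyr61 and F3 over Axl had to be lowest. FPKM of Cyr61 was 0.751, 1.52 and 0.614 times that of Axl in CTL 1, MS 3 and MS + Blebb. 2. In the other 6 libraries it was between 3.79 and 6.35 times that of Axl. The same division was seen for F3 over Axl, at 0.579, 1.08 and 0.470 against 1.17 to 3.71, although MS 3 at 1.08 came close to MS + Blebb. 1 at 1.17.

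The stress genes were set beside these values. In the 3 libraries the 6 stress genes summed to 1010 FPKM (CTL 1), 785 FPKM (MS 3) and 1040 FPKM (MS + Blebb. 2). MS 3 departed least from its group for all 6 genes tested, but the share of all genes that did so was not counted. On the first principal component too, MS 3 at -10 lay closer to the rest than CTL 1 (-42.1) and MS + Blebb. 2 (-43.9). Among the other 6 libraries, the sum was highest in MS + Blebb. 1, at 493 FPKM, where Cyr61 was at its highest, 15.4 FPKM. The part of the stress genes in the levels of the targets was not tested.

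**Figure D3:**
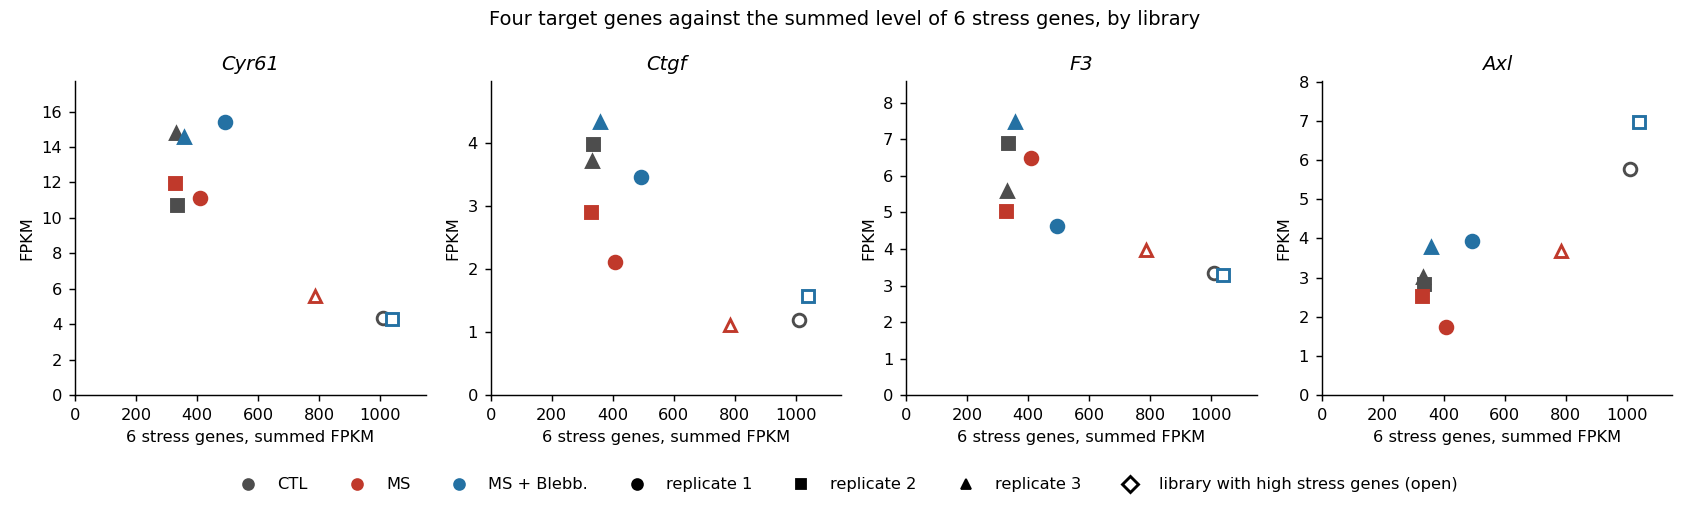
FPKM of Cyr61, Ctgf, F3 and Axl (y axes, linear, from 0) against the summed FPKM of Atf4, Ddit3, Trib3, Chac1, Asns and Sesn2 (x axis) in each of the 9 libraries, with colour for the group, shape for the replicate and open points for CTL 1, MS 3 and MS + Blebb. 2. The open points, at 785 to 1040 FPKM on the x axis, have the lowest Cyr61, Ctgf and F3, while MS + Blebb. 1 and MS 3 have Axl at 3.94 and 3.69 FPKM, close to each other.

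Without these 3 libraries, 2 libraries were left in each group. Ctgf was then at 3.73 and 3.997 FPKM in CTL, at 2.12 and 2.91 FPKM in MS and at 3.46 and 4.34 FPKM in MS + Blebb., with MS below both of the other groups. Axl was at 2.84 and 3.02 FPKM in CTL, at 1.75 and 2.52 FPKM in MS and at 3.77 and 3.94 FPKM in MS + Blebb., in the same order. Ajuba was at 15.7 and 18.3 FPKM, at 12.45 and 15.6 FPKM and at 16.04 and 18.3 FPKM, and it too was lower in MS than in the other groups. Cyr61 was at 10.7 and 14.8 FPKM in CTL and overlapped with MS at 11.1 and 11.99 FPKM, and both MS + Blebb. libraries were higher, at 14.5 and 15.4 FPKM. F3 and Crim1 overlapped between the groups.

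Of the 6 genes, 3 (Ctgf, Axl and Ajuba) thus lay without overlap below CTL in MS, against 20.6% of all genes in these 6 libraries, and 4 (those and Cyr61) lay above MS in MS + Blebb., against 13.1% of all genes. In the limma fit on these libraries, the log2 fold change of Ctgf with straining was -0.48 (standard error 0.20, unadjusted p = 0.0465, adjusted p = 1.00). In MS + Blebb. against MS, Axl was at 0.64 (standard error 0.19, unadjusted p = 0.0115, adjusted p = 0.998, limma) and Ctgf at 0.48 (standard error 0.20, unadjusted p = 0.0445, adjusted p = 0.998, limma). None of them passed after adjustment over all genes, and both comparisons rest on the same 2 MS libraries. An unadjusted p under 0.05 was found for 1 of the 6 and 64 of 10109 genes in MS against CTL (limma). In MS + Blebb. against MS it was found for 2 of the 6 and 111 of 10109 genes (limma).

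The other genes of the pathway were counted in the same way. Of 14 further YAP targets, 9 reached the minimum (Myof, Amotl2, Lats2, Asap1, Fjx1, Gadd45a, Dock5, Ptpn14 and Arhgef17), Igfbp3, Foxf2 and Nt5e were at 0 in all libraries, and Ccdc80 and Rbms3 were at most 0.0804 and 0.206 FPKM. In each of the 3 comparisons, 0 of the 9 rose and 0 fell (limma with Benjamini-Hochberg adjustment), and 0 had an unadjusted p under 0.05. Their log2 fold changes lay between -0.16 (Ptpn14, a phosphatase that holds YAP in the cytoplasm) and 0.17 (Myof, a membrane repair protein) for MS with CTL. For MS + Blebb. with MS they lay between -0.30 (Myof) and 0.32 (Fjx1, a Golgi kinase), and Fjx1 was the 1 of the 9 whose groups did not overlap (3.73% of all genes). Amotl2, an angiomotin-family gene whose protein binds YAP, was lowest of its group in the 3 libraries with high stress genes, at 57.2%, 89.7% and 76.3% of the mean of the other 2, and Arhgef17 was as well. These were 2 of the 9, near the 23.0% of all genes, and 0 of the 9 were highest in all 3, against 22.8% of all genes.

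The coactivators and their partners were all expressed, 8 of 8 averaging 1 FPKM or more. In each comparison 0 of the 8 passed (limma with Benjamini-Hochberg adjustment) and 0 had an unadjusted p under 0.05. Yap1 was between 28.9 and 40.3 FPKM and Wwtr1 between 6.76 and 10.1 FPKM over the libraries, with no common direction in the 3 libraries that stood apart. Yap1 was at 94.3%, 127% and 82.5% of the other 2 of its group, and Wwtr1 at 91.2%, 127% and 91.9%. Of the 8, 3 (Tead4, Vgll3 and Vgll4) were lowest of their group in all 3 libraries, against 23.0% of all genes, and 2 (Tead2 and Tead3) were highest, against 22.8%. Tead2, the most abundant TEAD gene, was at 105%, 108% and 123%. Tead1 was at 27.1%, 85.5% and 32.7%, Tead4 at 74.7%, 85.4% and 80.6%, and Tead3 at 210%, 144% and 211%. Vgll3, a cofactor that competes with YAP for the TEAD proteins, was at 23.3%, 41.7% and 24.7%, lower in proportion than any of the 6 targets tested in each of the 3 libraries. Vgll4, a TEAD cofactor that opposes YAP, was at 62.8%, 72.8% and 87.0%.

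**Figure D4:**
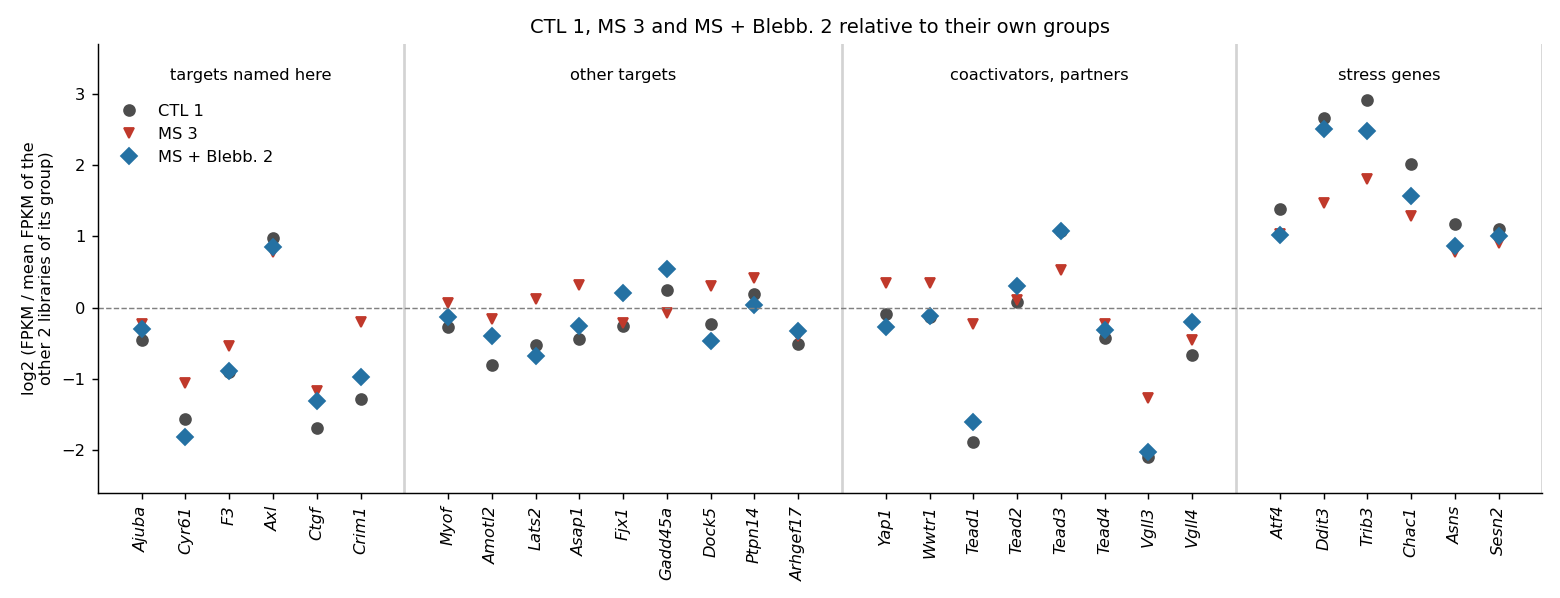
Log2 ratio of FPKM in CTL 1, MS 3 and MS + Blebb. 2 to the mean of the other 2 libraries of the same group (y axis) for the target genes tested, 9 further targets, 8 coactivators and partners and 6 stress genes (x axis). Each point is 1 library. Cyr61, Ctgf, F3, Ajuba, Crim1, Amotl2, Arhgef17, Tead1, Tead4, Vgll3 and Vgll4 lie below 0 in all 3. Axl, Ptpn14, Tead2, Tead3 and the stress genes lie above 0 in all 3. The other genes, Yap1 and Wwtr1 among them, lie on both sides.

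For each target tested, the 3 genes most like it were taken by Pearson's r of log2(FPKM + 1) over the 9 libraries, among 7004 genes that averaged 5 FPKM or more. The 9 points share the 3 libraries that stood apart, so r over the other 6 libraries is given after it, and both are descriptions. For Cyr61 these genes were Mthfd1 (0.991 and 0.939), Gart (0.991 and 0.974) and Spc24 (0.990 and 0.873). Mthfd1 and Gart encode enzymes of folate and purine metabolism, and Spc24 encodes a kinetochore protein. For Ctgf they were Spred2 (0.970 and 0.894), Epdr1 and Sipa1, and for F3 they were Khdc4 (0.974 and 0.945), Pi4k2b and Tial1. For Axl they were Csnk1d (0.977 and 0.947), Nrde2 and Kctd13, for Ajuba Setd1a (0.983 and 0.989), Nup210 and Mogs, and for Crim1 Arl5a (0.989 and 0.968), Sdad1 and Nup98.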

How the data were processed

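RNA of B16 cells was extracted with TRIzol and sequenced on an Illumina platform, and the authors deposited 1 FPKM value per gene and library. Per the file headers the unit is FPKM in 8 files, and the column of CTL replicate 1, headed by the sample's name, was read as FPKM from the paper's methods. GRCm38 and mm10 are named in the submitters' processing notes. The aligner, counter, annotation and filters are not given in the sources used here. Columns summed to between 439939 and 484093 FPKM. Depth is unknown, since ratios of low values between libraries gathered at no fixed step (2.14% or fewer in any log2 bin of 0.02), so no counting intervals are given.

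Values were fitted as log2(FPKM + 1) for 10109 genes that averaged 1 FPKM or more, with limma 3.58.1 in R 4.3.3 (3 groups, 9 libraries, mean-variance trend, two-sided tests, Benjamini-Hochberg adjustment over all genes tested, threshold 0.05). The fit was tested on simulated data in which each gene varied independently. The real libraries share differences across many genes, so this does not show how the fit performs on them. Targets too low for the fit were tested by exact permutation in scipy 1.17.1. The genes named were the 10 targets, the lists of further targets, partners, stress genes and cell type markers, and the 3 genes most like each target tested. The members and lists were chosen with earlier results of these data known. Gene positions and promoters are those of RefSeq for GRCm38.p6, the build of the notes. The fit was repeated with a pseudocount of 0.1, without the minimum, with a minimum of 5 FPKM, with median-of-ratios factors, with quantile normalization, with the replicate number as a block, after a loess correction for GC content (span 0.5, 9752 genes with GC content), with each library left out, and on 6 libraries without the first CTL, the third MS and the second MS + Blebb.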

Additional observations from a re-analysis of the deposited data

How the results depend on the processing

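No target gene passed the adjusted threshold (0 of those fitted, limma) under any alternative run, and over all genes the number was also 0 apart from 1 in MS over CTL and 1 in MS + Blebb. over MS, each when MS 2 was removed, so those numbers ranged from 0 to 1. Deviations of same-numbered libraries from their group means correlated between -0.785 and 0.835, and those of differently numbered libraries between -0.882 and 0.923. With 3 libraries a group, this cannot show whether same-numbered libraries were handled together. With the replicate block, 0 genes passed, and 14, 119 and 10 genes had an unadjusted p under 0.05 in MS over CTL, MS + Blebb. over MS and MS + Blebb. over CTL, against 16, 126 and 9 without it. The direction of Axl held in all 3 comparisons under every alternative that fitted it, and so did that of Ctgf and Ajuba in the first 2. Sizes moved more. After the GC correction Ajuba was at -0.092 for straining over CTL and at 0.12 for MS + Blebb. over MS, against -0.19 and 0.25. With each library left out, Ctgf ranged from -0.72 to -0.096 and from 0.18 to 0.72, Axl from -0.60 to -0.14 and from 0.44 to 0.88, and Ajuba from -0.33 to -0.070 and from 0.16 to 0.36, in the same 2 comparisons.

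Signs turned for differences near 0, and the cause was not tested. For straining over CTL, quantile normalization gave log2 fold changes of -0.038 for Crim1 and -0.036 for Cyr61, and the 6 libraries gave -0.22 and -0.12. F3 turned to 0.0043 with a pseudocount of 0.1 and to 0.00036 with median-of-ratios factors. For MS + Blebb. over MS, F3 was at 0.085 with quantile normalization, 0.13 after the GC correction and 0.038 in the 6 libraries. Over CTL it was at 0.033 and 0.043 under the first 2 of these. With each library left out in turn, straining over CTL ranged from -0.26 to 0.22 for Crim1, from -0.43 to 0.36 for Cyr61 and from -0.25 to 0.19 for F3. MS + Blebb. over MS ranged from -0.43 to 0.019 for Crim1, from -0.18 to 0.66 for Cyr61 and from -0.31 to 0.18 for F3. MS + Blebb. over CTL ranged from -0.078 to 0.18 for Ajuba, from -0.45 to 0.048 for Crim1 and from -0.30 to 0.68 for Cyr61. It also ranged from -0.30 to 0.39 for Ctgf and from -0.31 to 0.18 for F3. The minimum of 5 FPKM left Ajuba, Cyr61 and F3 in the fit, so it gave no value for Axl, Ctgf and Crim1. With 3 libraries a group and no counts, the 95% interval of Cyr61 for straining over CTL spans -1.17 to 1.22 on the log2 scale.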
